A study of Mus musculus with 4 samples.

Results

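The genes described here are 7 adipokines, the hormones and other signalling proteins that fat cells secrete: Adipoq (adiponectin), Lep (leptin), Retn (resistin), Cfd (adipsin), Rbp4 (retinol binding protein), Nampt (visfatin) and Apln (apelin). They were chosen by name as known adipocyte hormones, by a rule that has no threshold on their values, and were found by matching each gene identifier to a mouse symbol. All 7 were present among the 22913 genes listed for each library, and all 7 reached an FPKM (sequenced fragments scaled for gene length and library size) of 1 or more in at least 1 library.

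Gene expression was measured by RNA sequencing of dermal white adipose tissue (dWAT), the fat layer around the lower ends of the hair follicles (HFs), from C57BL/6 mice. The 4 groups were OTD (old mice, HFs in telogen, the resting phase), YTD (young mice, telogen), OAD (old mice, HFs in anagen, the growing phase) and YAD (young mice, anagen), with 1 library each. Old mice were 18 months and young mice 2 months of age by the protocol, whereas the age tags give 18 months for both telogen samples and 2 months for both anagen samples, so ages were taken from the sample titles. Anagen had been induced by plucking the hair, so that in each comparison of phases the hair phase and the depilation cannot be told apart. Tissue of several mice went into each group, dWAT was scraped free by microdissection after the fat and muscle beneath it had been removed, and the labels name no transgene or drug. With 1 library per group no spread between replicates is known, no test was possible, and every difference is one between single libraries. The 4 comparisons share libraries, so they are not independent of each other.

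Adipokines act on distant organs and on neighbouring cells. Adiponectin is assembled into multimers in the endoplasmic reticulum and signals through a pair of receptors, leptin reports the fat store to the brain, and adipsin is the protease that starts the alternative complement pathway. In skin, mature adipocytes of dWAT lie next to the HF, grow and shrink with the hair cycle, and release factors that reach the follicle.

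The stretch before the start site of 3 of these genes is shown because they mark the range of behaviour described below: Cfd was the most abundant member, Adipoq the adipocyte hormone with the largest difference between phases in old mice on the log2 scale, and Lep the member with the smallest. The sequences are RefSeq's, on GRCm38.p6, 250 bases that end just before the start site, read 5′ to 3′ on the gene's strand; capitals mark matches to a TATA box (TATAAA), a C/EBP site (TTGCNNAA) or a CCAAT box (CCAAT), each searched on both strands.
Lep, chr6:29059971-29060220, plus strand: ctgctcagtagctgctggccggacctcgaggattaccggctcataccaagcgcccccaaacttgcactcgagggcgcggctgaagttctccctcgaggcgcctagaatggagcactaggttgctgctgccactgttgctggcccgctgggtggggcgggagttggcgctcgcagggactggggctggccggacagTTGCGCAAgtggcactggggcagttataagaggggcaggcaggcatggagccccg
Adipoq, chr16:23146286-23146535, plus strand: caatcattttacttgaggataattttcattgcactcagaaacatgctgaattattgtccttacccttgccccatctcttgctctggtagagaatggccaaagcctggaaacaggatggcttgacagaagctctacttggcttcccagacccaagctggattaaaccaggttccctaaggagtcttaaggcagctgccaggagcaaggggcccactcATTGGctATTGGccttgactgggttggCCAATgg
Cfd, chr10:79890603-79890852, plus strand: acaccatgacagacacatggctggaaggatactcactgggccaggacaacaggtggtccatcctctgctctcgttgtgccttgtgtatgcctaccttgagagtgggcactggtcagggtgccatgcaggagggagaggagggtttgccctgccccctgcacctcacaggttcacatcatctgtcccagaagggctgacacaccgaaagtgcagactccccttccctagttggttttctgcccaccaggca
Lep held 1 C/EBP match, 55 bases before its start site, and C/EBP proteins are transcription factors of the adipocyte. Adipoq held 3 CCAAT boxes and no C/EBP match, and Cfd held none of the 3 motifs. The members had 8 such promoters, since Rbp4 has 2 start sites. A C/EBP match was found in 2 of the 8 (Lep and 1 of Rbp4) and in 9.56% of all 32851 promoters, a CCAAT box in 2 of the 8 and in 33.8%, and a TATA box in 1 of the 8 (Rbp4) and in 12.4%. The direct repeat bound by PPAR receptors was in none of the 8 and in 0.0335% of all promoters. These matches are a description of the letters in the window.

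On GRCm38, as the files give it, Adipoq spans chr16:23146536-23158028 on the plus strand, Lep chr6:29060220-29073877 (plus), Retn chr8:3655770-3660110 (plus) and Cfd chr10:79890853-79892656 (plus). Rbp4 spans chr19:38116620-38125321 on the minus strand, Nampt chr12:32820335-32853369 (plus) and Apln chrX:48025146-48034853 (minus). Each is an annotated protein-coding gene, and none overlaps another gene of the files. The feature lengths listed beside the FPKM are coding lengths, from 234 bases for Apln to 1476 for Nampt.

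Cfd stood far above the other members in every library. Its FPKM was 3401 and 3216 in OTD and YTD, and 1070.0 and 671 in OAD and YAD. Among all nuclear genes it ranked 14 and 22 in the old and young telogen libraries and 123 and 164 in the anagen libraries. Both telogen libraries were above both anagen libraries.

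Adipoq, which raises insulin sensitivity, and Retn, which in mice is made by adipocytes and lowers it, formed the next level. The FPKM of Adipoq was 427 and 280.5 in OTD and YTD, and 103 and 76.5 in OAD and YAD. That of Retn was 287, 329, 90.6 and 73.5 in the same order. Adipoq was above Retn in OTD, OAD and YAD and below it in YTD. The 2 genes lay within 1.17-fold of each other in YTD and 1.04-fold in YAD, and whether these neighbours differ beyond the spread between samples is not known.

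Rbp4, the carrier of retinol in blood, came next in each library, at an FPKM of 72.2 and 66.2 in OTD and YTD, and 24.4 and 17.4 in OAD and YAD. Nampt, an enzyme of NAD synthesis that is also secreted and that most cells express, had 38.6, 44.4, 10.5 and 12.6. Lep had 19.4 and 27.8 in OTD and YTD, and 11.9 and 11.4 in OAD and YAD. Nampt lay above Lep in OTD, YTD and YAD and just below it in OAD. For Lep the gap between the anagen libraries was small beside that between the telogen libraries.

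Apln, a peptide hormone that endothelial cells make as well, was the lowest member, with an FPKM of 2.20 and 4.10 in OTD and YTD, and 0.448 and 0.909 in OAD and YAD. From a rough estimate of depth these values rest on about 10.4, 18.4, 2.56 and 5.13 fragments. The value in OAD is below the level worth 3 fragments, so that Apln is at the edge of detection in anagen. By comparison, Lep rests on about 139 fragments in YAD, its lowest library, and Cfd on about 12600.

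**Figure D1:**
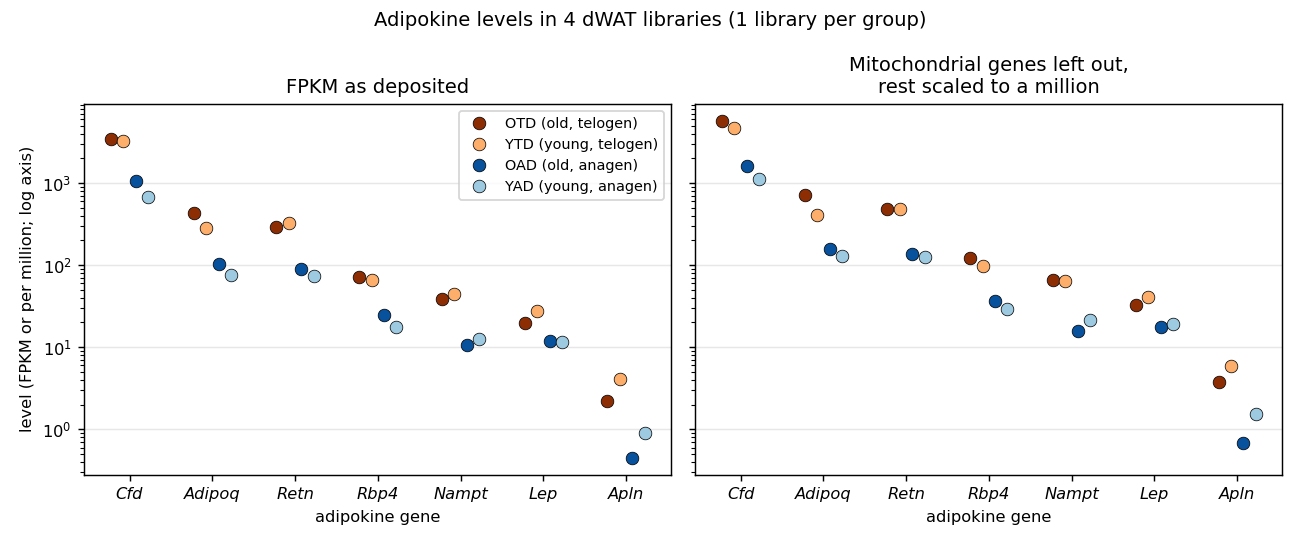
Level of the 7 adipokines (x axis) in the 4 dWAT libraries, 1 point per library, on a log axis, as FPKM as deposited (left) and with mitochondrial genes left out and the rest scaled to sum to 1000000 (right). For each gene the 2 telogen points (brown and orange) lie above the 2 anagen points (blue), and the gap is narrowest for Lep, with an FPKM of 19.4 and 27.8 in telogen against 11.9 and 11.4 in anagen.

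The libraries differed in more than hair phase. Genes encoded in mitochondria made up 52.7% (OTD) and 44.7% (YTD) of all FPKM in telogen and 18.3% (OAD) and 14.4% (YAD) in anagen, so each value is also given with the 13 mitochondrial genes left out and the remaining FPKM scaled to 1000000 (nuclear scale). The estimated depth was 19100000 to 24400000 fragments. All 17 adipocyte markers were detected in every library, and of 6 brown adipocyte markers 5 were expressed. Among these, Cox8b was at 2234 and 3392 FPKM in OTD and YTD and Cox7a1 at 757 and 1245, both of which muscle also expresses. Elovl3 was at 0.685 and 1.33 in OTD and YTD, and 39.3 and 62.2 in OAD and YAD. Hair shaft and epidermal markers were also higher in the anagen libraries, and their part in the values of Elovl3 was not tested. Ucp1 was at 0.122 at most. Of the other tissues, 15 of 15 skeletal muscle markers were detected and summed to 13.3% and 18.1% of nuclear FPKM in OTD and YTD, and to 2.71% and 2.33% in OAD and YAD. The 11 hair shaft markers in the files moved the other way, from 0.00591% in OTD and 0.0150% in YTD to 1.72% in OAD and 2.00% in YAD, and the 12 epidermal markers from 0.0173% and 0.0198% to 0.435% and 0.360%. The 10 endothelial markers, of cells that also make apelin, went from 0.105% and 0.0574% to 0.0236% and 0.0198%. In bulk tissue, fewer cells of a type, less RNA per cell and a larger share of RNA from other tissues cannot be told apart.

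**Figure D2:**
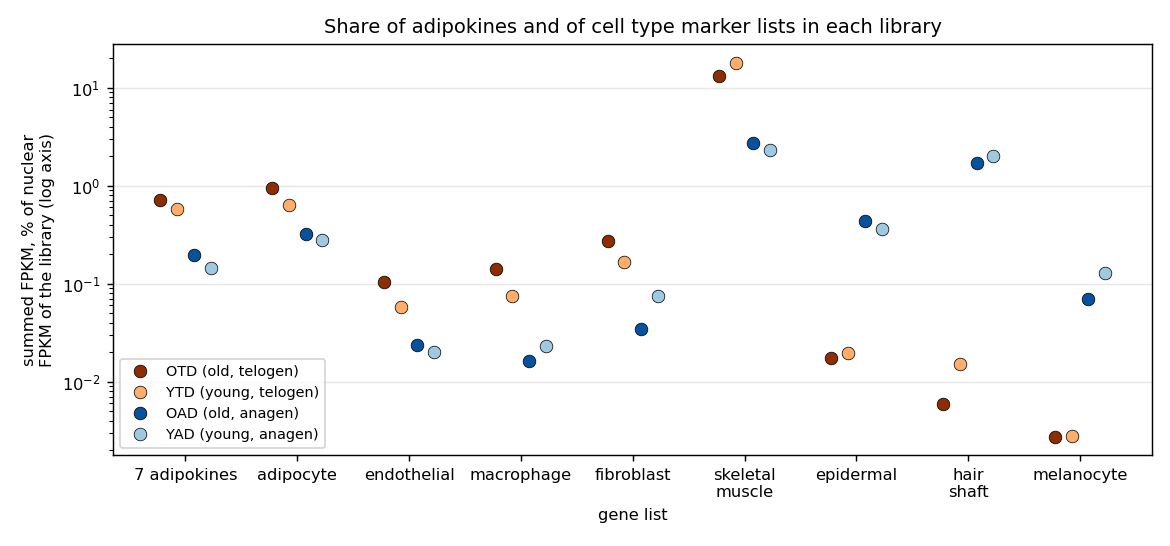
Summed FPKM of the 7 adipokines and of 8 lists of cell type markers (x axis) as a percent of the nuclear FPKM of each library, on a log axis, 1 point per library. Adipokines went from 0.719% in OTD and 0.576% in YTD to 0.197% in OAD and 0.146% in YAD, adipocyte, endothelial, macrophage, fibroblast and muscle lists were also lower in both anagen libraries, and epidermal, hair shaft and melanocyte lists were higher.

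In young mice every adipokine was lower in anagen than in telogen. Differences between libraries are given as the difference of log2(FPKM + 1), which understates that of low genes, and folds as the plain ratio of FPKM. All 7 members were lower by at least 1 on this log2 scale in YAD than in YTD, against 20.7% of the 14203 expressed genes, and on the nuclear scale all 7 against 19.0% of 14190. The median difference was -1.86 over the members and 0.01 over all expressed genes, or -1.65 and 0.21 on the nuclear scale. Scaled to TPM (all FPKM, mitochondrial genes included, summing to 1000000), 4 of 7 passed, with Lep, Nampt and Apln short of the threshold and a median of -1.02. The complement protease Cfd had the largest difference, -2.26, a 4.79-fold lower FPKM. Retn was 4.47-fold lower (-2.15 on the log2 scale), Rbp4 3.81-fold (-1.87) and Adipoq 3.67-fold (-1.86). Nampt was 3.52-fold lower (-1.74). Lep had the smallest difference, 2.44-fold (-1.21), or -1.03 on the nuclear scale. Apln, counted among the 7, rests on about 5.13 fragments in YAD. Its ratio of YAD to YTD was 0.222, with a 95% counting interval of 0.0640 to 0.617. This interval covers counting error only, as do all such intervals here.

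In old mice the adipokines were again lower in anagen, with Lep least so. In OAD against OTD, 6 of 7 members were lower by at least 1 on the log2 scale, against 19.4% of expressed genes, and on the nuclear scale 6 of 7 against 24.6%. The median difference was -1.65 over the members and 0.05 over all expressed genes, or -1.83 and -0.10 on the nuclear scale. Adipoq had the largest difference on the log2 scale, -2.04, a 4.13-fold lower FPKM. Nampt was 3.66-fold lower (-1.78), Cfd 3.18-fold (-1.67), Retn 3.17-fold (-1.65) and Rbp4 2.95-fold (-1.52). Lep was 1.64-fold lower (-0.67), the only member short of the threshold as deposited and also on the nuclear scale (-0.85). With muscle markers left out as well, Lep reached -1.01 and all 7 passed, while under TPM 4 of 7 passed, with Lep at -0.09, Rbp4 at -0.92 and Apln at -0.83. As deposited, the counting interval of the Lep ratio, 0.490 to 0.760 around 0.610, leaves out 1, but it does not cover the choice of scale. Apln, counted among the 6 though at the edge of detection in OAD, had a ratio of 0.204, with an interval of 0.0439 to 0.965.

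**Figure D3:**
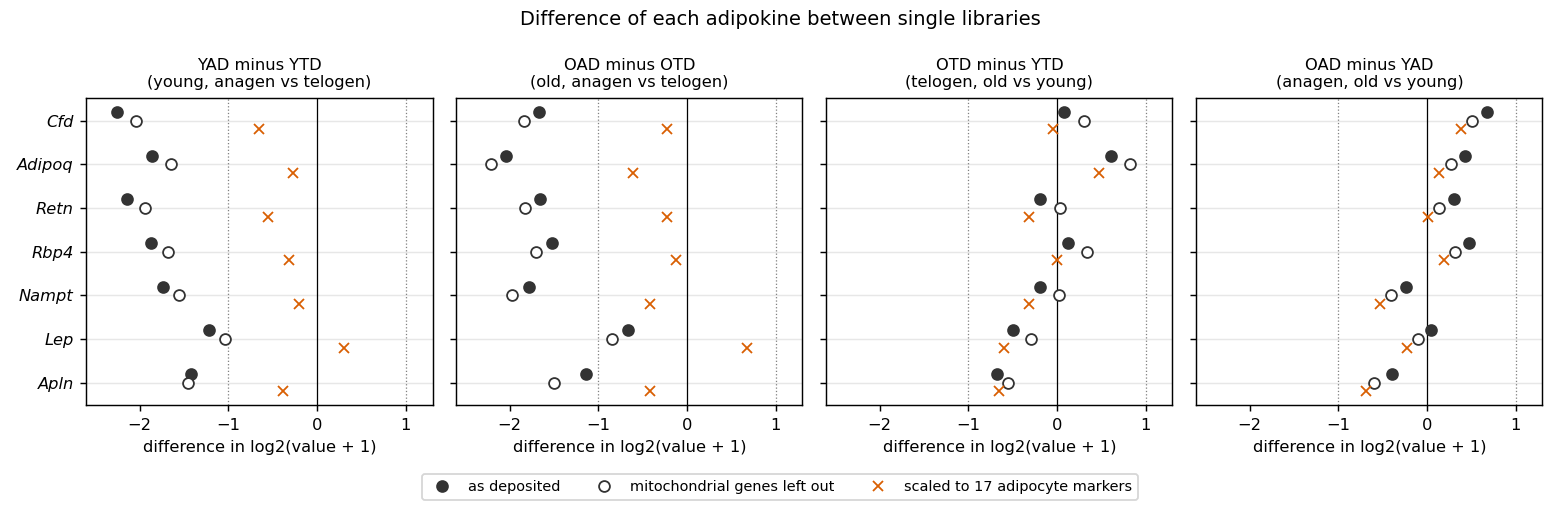
Difference in log2(value + 1) of each adipokine between 2 single libraries in 4 comparisons, with FPKM as deposited (filled circles), mitochondrial genes left out (open circles) and each library scaled to its 17 adipocyte markers (crosses); dotted lines mark a difference of 1 in size. In both comparisons of phases the circles lie to the left of 0 for each gene, while scaling to adipocyte markers moves every gene towards 0 and Lep past it, to 0.30 in young and 0.68 in old mice.

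The adipokines were lower in anagen alongside the genes of the fat cell itself. All 17 adipocyte markers, which cover lipid storage, lipolysis and glucose uptake, were lower in anagen in both ages, 14 of them by at least 1 in young mice and 13 in old mice. Their geometric mean was 124 and 113 FPKM in OTD and YTD, and 45.6 and 37.2 in OAD and YAD, a 3.04-fold lower level in anagen in young and a 2.71-fold lower level in old mice. Set against this mean, Cfd was 1.58-fold lower in anagen in young and 1.17-fold lower in old mice. Retn was 1.47-fold lower in young and 1.17-fold lower in old mice. Adipoq was 1.21-fold and 1.53-fold lower, and Rbp4 1.25-fold and 1.09-fold lower.

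Lep was the exception: relative to the adipocyte markers it was 1.25-fold higher in anagen in young and 1.65-fold higher in old mice. In old mice 16 of the 17 markers had a larger decrease than Lep, the exception being Cebpa (-0.22), an adipogenic transcription factor. For Adipoq in old mice only 1 of the 17 had a larger decrease, the fatty acid transporter Cd36 (-2.71). In young mice 13 markers had a larger decrease than Lep and 4 a smaller one. The markers themselves ranged there from -2.77 (Slc2a4) to -0.28 (Cebpa), so the mean depends on which markers are listed. No member was past the threshold in anagen against telogen on the adipocyte scale, in either age. Endothelial and muscle markers were lower in anagen too, 10 of 10 and 15 of 15 by at least 1 in young mice. The part of each of these tissues in the adipokine values, and in the adipocyte marker mean, was not tested.

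Between old and young mice in telogen no adipokine differed by 1 or more on the log2 scale, against 4.37% of expressed genes that did so in either direction and 6.27% on the nuclear scale. Adipoq was higher in OTD, by 0.60 as deposited and by 0.83 on the nuclear scale (1.52-fold and 1.78-fold). Lep was lower in OTD, at -0.50 as deposited and -0.29 on the nuclear scale. Its ratio of OTD to YTD was 0.698, with a counting interval of 0.577 to 0.841. The hormone of insulin sensitivity was higher and the hormone of fat stores lower in the old library under both scales.

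For the remaining members other than Apln the telogen libraries were close to each other. Cfd differed by 0.08 (0.30 on the nuclear scale) and Rbp4 by 0.12 (0.34). Retn differed by -0.19 and Nampt by -0.20, and both came to near 0 on the nuclear scale, at 0.03 and 0.02, so that their direction turns with the scale. The ratio of Apln was 0.536 with a counting interval of 0.217 to 1.20, so that a difference was not detectable at this depth. The scale matters for all genes here: 43.3% of expressed genes were higher in OTD as deposited and 60.03% on the nuclear scale, with medians of -0.06 and 0.11. As summed FPKM, the adipocyte marker share was higher in OTD than in YTD (0.945% against 0.639%). So were the fibroblast (0.273% against 0.168%), macrophage (0.142% against 0.0745%) and endothelial (0.105% against 0.0574%) shares, while the muscle share was lower. Such sums are weighted to abundant genes such as Fabp4, at 2880 and 1873 FPKM in OTD and YTD. Of the 17 adipocyte markers, 10 were higher in OTD and 7 lower as deposited, and 13 and 4 on the nuclear scale. Their geometric mean as deposited was 1.09-fold higher in OTD. The part of these tissues in the adipokine values was not tested.

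Between old and young mice in anagen no adipokine passed the threshold either, against 1.46% of expressed genes as deposited and 2.08% on the nuclear scale. Cfd was higher in OAD by 0.67 as deposited (1.59-fold) and by 0.51 on the nuclear scale. Rbp4 was higher in OAD by 0.47 (0.32 on the nuclear scale), Adipoq by 0.43 (0.27) and Retn by 0.30 (0.14). Of the 17 adipocyte markers, 16 had a smaller difference than Cfd, and only the adrenergic receptor gene Adrb3, at 1.05, had a larger one. The scale shifts all genes here too: 50.02% of expressed genes were higher in OAD as deposited and 27.6% on that scale, with medians of 0.00 and -0.15.

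Nampt was lower in old mice in anagen. It differed by -0.24 (-0.40 on the nuclear scale), with a ratio of OAD to YAD of 0.835 and a counting interval of 0.727 to 0.961. All 17 adipocyte markers had a higher difference than Nampt. The ratio of Apln was 0.493, with an interval of 0.0921 to 3.05, too wide for a direction. Lep was almost level, at 0.05 as deposited and -0.10 on the nuclear scale, with a ratio of 1.04 and an interval of 0.817 to 1.32.

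Ratios of adipokines within a library do not depend on the scale chosen between libraries. The FPKM of Lep was 0.0455 and 0.0993 times that of Adipoq in OTD and YTD, and 0.115 and 0.149 times in OAD and YAD. The Lep to Adipoq ratio was thus lower in the old library in both phases, 0.459 times the young one in telogen and 0.768 times in anagen. It was higher in anagen than in telogen in both ages, 1.505-fold in young and 2.52-fold in old mice.

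Nampt followed the same order by age as Lep when set against Adipoq. Its ratio to Adipoq was 0.0905 in OTD and 0.158 in YTD, and 0.102 in OAD and 0.165 in YAD, so that old was 0.571 times young in telogen and 0.618 times in anagen. The ratio did not move much with hair phase, 1.04-fold in young and 1.13-fold in old mice. In telogen Nampt itself differed between ages by only -0.20 as deposited and 0.02 on the nuclear scale. The matching differences of Adipoq, the divisor, were 0.60 and 0.83. Retn was 0.673 and 1.17 times Adipoq in OTD and YTD, and 0.876 and 0.961 times in OAD and YAD. Cfd was 7.96 times Adipoq in OTD, the lowest of the 4, and 11.5, 10.4 and 8.78 times in YTD, OAD and YAD. Rbp4 stood at 0.236 in YTD, 0.236 in OAD and 0.227 in YAD, with 0.169 in OTD. Of the ratios to Adipoq of Lep, Retn, Cfd, Rbp4 and Nampt, each had its lowest value in OTD, the library with the highest Adipoq.

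**Figure D4:**
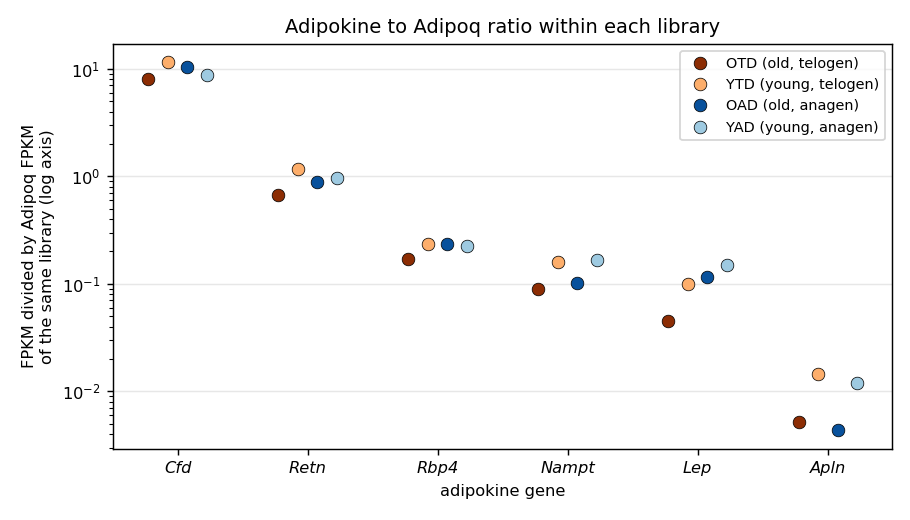
FPKM of 6 adipokines divided by the FPKM of Adipoq in the same library (y axis, log scale), 1 point per library. Lep runs from 0.0455 in OTD to 0.149 in YAD. The ratio of Nampt to Adipoq separates by age, with 0.0905 and 0.102 in the old and 0.158 and 0.165 in the young libraries. Retn, and Apln at few fragments, are likewise lower in both old libraries than in both young ones.

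The partners of the adipokines did not all move with them. Counts of such lists are read beside all expressed genes, of which 20.7% were lower and 19.9% higher in anagen by at least 1 in young mice, and 19.4% and 20.1% in old mice. Of 11 listed receptors and binding partners 9 were expressed, and in each age 4 were lower and 2 higher in anagen by at least 1 as deposited. On the nuclear scale 3 were lower and 3 higher in young mice, and 5 lower and 2 higher in old mice. Adipor1, a receptor of adiponectin, had an FPKM of 113 and 161 in OTD and YTD, and 61.2 and 56.5 in OAD and YAD. Cdh13, which binds adiponectin multimers at the surface of vessels and muscle, was at 46.3 and 41.9 in telogen and at 7.93 and 9.92 in anagen. Aplnr, the apelin receptor, was at 10.2, 15.1, 4.35 and 4.69. Adipor1, Cdh13 and Aplnr were lower in anagen, as were their ligands, though Adipor1 in old mice by only 0.87 on the log2 scale. Cap1, also on the list, was instead at 39.6 and 29.3 in OTD and YTD, and 48.3 and 52.2 in OAD and YAD.

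The leptin receptor gene Lepr ran against its ligand by age in telogen. Its FPKM was 9.56 in OTD and 5.59 in YTD, a 1.71-fold higher level in old mice, and 2.81 in OAD and 3.97 in YAD. With 1 value per gene, the short and long forms of the receptor are not told apart. Leprot, which shares its promoter region with Lepr, was likewise 1.62-fold higher in OTD, at 48.2 against 29.8. In old mice Lepr was lower in anagen by 1.47 on the log2 scale, in young mice by 0.41.

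A receptor gene ran opposite to Rbp4. Stra6, the receptor through which cells take retinol from the Rbp4 protein, stood at 0.797 and 0.694 FPKM in the old and young telogen libraries but at 58.3 and 53.9 in the anagen libraries. It was 77.6-fold higher in anagen in young and 73.1-fold higher in old mice. Hair shaft and epidermal markers were higher in the same 2 libraries, and their part in the values of Stra6 was not tested.

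The alternative complement pathway, which Cfd starts by cutting factor B, was lower in anagen with it. Of 9 listed genes 7 were expressed, of which 6 were lower by at least 1 in young and 7 in old mice. C3, the central component, had an FPKM of 87.7 and 59.7 in OTD and YTD, and 18.8 and 11.0 in OAD and YAD, and Cfb, the substrate of adipsin, 26.3, 22.5, 11.7 and 7.68. C3ar1, a receptor of the C3a fragment found on myeloid cells, was at 6.55 and 3.13 in telogen and 0.287 and 0.450 in anagen, and 10 of 12 macrophage markers were lower by at least 1 in anagen in either age.

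Of 8 genes that fold and release adiponectin, 3 were higher by at least 1 in anagen in each age, opposite to Adipoq. As deposited 2 were lower in young mice and 1 in old mice, and on the nuclear scale 1 in young and 2 in old mice. The oxidase gene Ero1l was at 6.89 and 7.39 FPKM in telogen and at 38.6 in OAD and 26.3 in YAD. The chaperone Hspa5 was at 71.4 and 67.5 in telogen and 236 and 205 in anagen, and the disulphide isomerase Pdia4 at 13.2 and 10.4 against 41.4 and 46.4. Erp44, which retains adiponectin in the early secretory pathway, differed little, at 19.4, 22.2, 17.5 and 18.1. Plod1, which hydroxylates lysines of collagen-like chains, was at 19.8 and 20.4 in telogen against 6.35 and 8.54 in anagen, and Gstk1, a glutathione transferase, at 43.1 and 39.5 against 21.5 and 16.2. These genes serve all secretory cells.

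**Figure D5:**
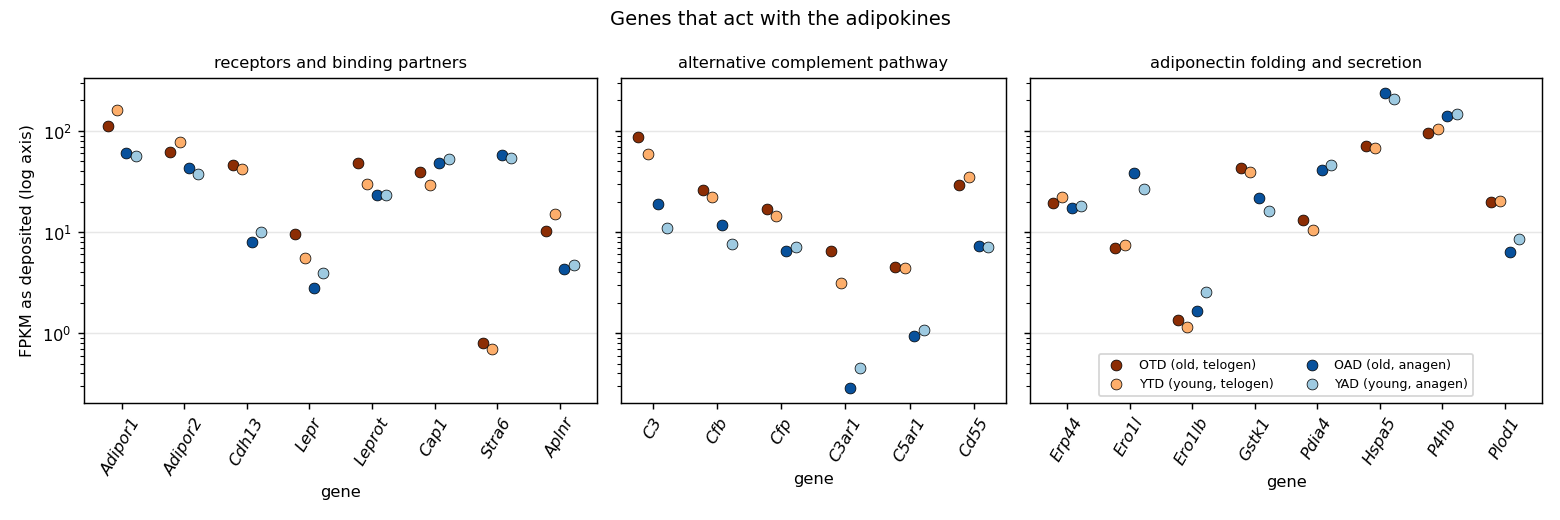
FPKM as deposited (log axis) of selected receptors and binding partners, alternative complement genes and adiponectin folding genes (x axis) in the 4 libraries, 1 point per library. Stra6 in the left panel and Ero1l, Pdia4 and Hspa5 in the right panel are higher in both anagen libraries, and each complement gene drawn in the middle panel is lower.

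Of 10 listed genes that make or use NAD beside Nampt, 9 were expressed, and 4 were lower in anagen by at least 1 and none higher in each age as deposited. On the nuclear scale 1 was higher in young mice, Nmnat2, by 1.14. Nmnat1, the nuclear enzyme of the step after Nampt, was at 8.07 and 10.7 in OTD and YTD, and 2.67 and 3.66 in OAD and YAD. Nmrk2, a kinase of nicotinamide riboside typical of muscle, was at 5.72, 11.4, 0.974 and 0.791, with the muscle markers at 13.3% and 18.1% of nuclear FPKM in telogen. Nadk, which turns NAD into NADP, was at 47.2, 40.0, 35.5 and 36.9.

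The closest relatives of Retn and Adipoq were also lower in anagen. Retnla, a resistin-like protein of adipose tissue and of alternatively activated macrophages, had an FPKM of 179 and 164 in OTD and YTD, and 14.0 and 21.2 in OAD and YAD. It was thus less abundant than Retn in every library and had the larger difference between phases, -2.89 in young and -3.58 in old mice. Of 12 expressed relatives of adiponectin with a C1q domain, 8 were lower in anagen by at least 1 in young and 10 in old mice, although C1qa, C1qb and C1qc among them are macrophage markers as well. C1qtnf9, the closest of them to adiponectin, was at 37.8, 26.2, 4.82 and 4.64. C1qtnf12 was instead at 28.9 and 40.0 in telogen and 52.9 and 49.1 in anagen.

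Among 21 expressed further factors secreted by fat, 6 were higher in OTD than in YTD by at least 1, against 2.02% of all expressed genes. They included Lcn2 at 16.3 against 4.82 FPKM, Angptl4 at 19.8 against 8.80, Gdf10 at 13.0 against 5.24, Ccl2 at 15.6 against 5.95 and Il6 at 6.19 against 0.225. The list was chosen with earlier results of these data known, and the study had already reported Il6 and Ccl2 as higher in OTD. The count is therefore not independent evidence of a difference by age. Of 12 macrophage markers, 1 was higher in OTD by at least 1 as deposited and 4 on the nuclear scale, and their part in these values was not tested. In anagen 0 of the 21 differed by age by 1 or more, against 1.46% of expressed genes. With hair phase, 9 were lower and 3 higher in anagen in young mice, and 13 lower and 3 higher in old mice. Rarres2 (chemerin) was at 192, 124, 29.8 and 29.2, whereas Metrnl, a secreted meteorin relative, was at 24.3 and 19.1 in telogen and 119 and 102 in anagen.

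Transcription factors of the adipocyte, of which Pparg and Cebpa are also adipocyte markers, were measured beside them. Of 10 expressed, 5 were lower in anagen by at least 1 in young and 6 in old mice, and 1, Cebpb, was higher in both. Pparg, the master regulator of fat cells, was at 31.0 and 18.8 FPKM in OTD and YTD, and 7.90 and 5.73 in OAD and YAD. This order was shared with Adipoq, Cfd, Rbp4 and Cebpa. Cebpb was at 70.7 and 70.4 in telogen and at 262 in OAD and 148 in YAD, and Cebpa at 103, 101, 87.8 and 83.4. The C/EBP motif matched above, in a promoter of Lep and in 1 of Rbp4, is that of this family, and any action of these factors on either gene was not tested.

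The genes nearest to each adipokine in pattern were found among the 11181 genes that reached an FPKM of 1 in every library, by the distance between centred log2 profiles over the 4 libraries. They describe likeness over 4 values that share depth and scale, and many genes lie about as close. Adipoq lay nearest to Nqo1, Tmsb4x and Ctla2a, at distances of 0.09 to 0.10. Lep lay nearest to Slc25a3, Usp47 and Cox5b, at 0.03 to 0.04, with 344 genes within 0.25, and Slc25a3 and Cox5b code for mitochondrial proteins. Retn lay nearest to Eci1, Mtln and Pttg1, of which Eci1 serves fatty acid oxidation. Genes near Cfd included C130074G19Rik and Lmod1. Rbp4 lay nearest to Acss1, Fgf1 and Gsta4, and Nampt to Ndn, Flot2 and Cd209g. Apln, which was not above 1 in each library, had Gpt2 and Gm10762 as its nearest genes.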

How the data were processed

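RNA of dWAT was sequenced in 1 library per group (4 in all), grouped by the sample titles. For 22913 genes the authors deposited FPKM, with gene positions on GRCm38, and 97.0% of the feature lengths are multiples of 3 (coding length). The submitters' processing notes name bcl2fastq, TopHat2 and GRCm38, and the tool that computed FPKM is not given in the sources used here. Symbols were matched for 21750 identifiers. The members and gene lists were chosen with earlier results of these data known. The named genes are the members, list genes past a log2 difference of 1 or of high FPKM, and the 3 genes nearest to each member; some genes that this rule names are not reported here.

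Differences were taken on log2(FPKM + 1), as deposited and without the 13 mitochondrial genes, and counted at 1 or more in size among genes that reached an FPKM of 1 in any library. Depth was estimated from the lowest values of features of 2000 to 8000 bases, which is rough and in which short genes are the most uncertain, and the floor is 3 fragments. Counting intervals (95%, exact binomial) use these estimates. No test between groups was made. The steps were checked on simulated libraries with large changes in well expressed genes, for the comparisons of age only. This check did not cover small differences, low genes, comparisons of phases or the counting intervals. Alternatives were other scalings, pseudocounts and thresholds. Python 3.11.15, numpy 2.4.6, pandas 2.3.3, scipy 1.17.1 and matplotlib 3.10.9 were used.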

Additional observations from a re-analysis of the deposited data

Results flagged for a closer look

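Lep and Retn had age differences of opposite sign in the 2 hair phases, with 1 library per group, and the difference between phases was not tested. Lep was lower in old mice in telogen, at -0.50 on the log2 scale, and slightly higher in anagen, at 0.050, and the second value became -0.10 without mitochondrial genes. Retn was at -0.19 in telogen and 0.30 in anagen, and the first value became 0.03 without mitochondrial genes. For both genes the opposite signs were therefore seen as deposited and not on the nuclear scale.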

How the results depend on the processing

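No paired analysis was possible because each group has 1 library and the labels give no replicate numbers, and leaving out a library leaves no comparison. The planned count test was not run, since FPKM and no counts were used. Scaling each library to its adipocyte markers, which by construction removes what the members share with those markers, left 0 members past the threshold between phases in either age and turned Lep in young mice to 0.30. It moved the median of the members to -0.32 (telogen) and 0.0072 (anagen) between ages and to -0.32 (young) and -0.23 (old) between phases. Under TPM, which keeps the mitochondrial genes in the total, 4 members passed between phases in young mice, and the medians were -1.02 (young) and -1.04 (old) between phases and 0.070 between ages in anagen. Without mitochondrial genes the medians were 0.027 between ages in telogen and -1.65 (young) and -1.83 (old) between phases. Leaving out muscle markers too gave -0.054 between ages in telogen and -2.00 between phases in old mice. A threshold of 0.5 counted 2 members between ages in telogen and 1 in anagen, and a pseudocount of 0.01 counted 1 in anagen, Apln, whose value rests on fewer than 3 fragments. The cause of these moves was not tested otherwise. Depth limits Apln most.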
